A study of Mus musculus with 8 samples.

Results

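The signals of 7 genes of T helper cells were followed in memory CD4 T cells, namely Ahr, Gata3, Rora, Il17a, Ccr6, Tmem176a and Tmem176b. These 7 genes are among 11217 genes tested, and their 18 probe sets are among 34945 probe sets annotated to 1 gene symbol. A probe set was taken when that symbol was its only one. The genes were selected on their signals, chosen by a higher signal in Rictor-null Th1 cells than in Rictor-null Tfh cells on these arrays, so that difference is described here without a test. It held for the brightest probe set of 6 genes, while that of Rora was level and the Rora probe sets disagreed.

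RNA came from splenic memory T follicular helper (Tfh) and T helper 1 (Th1) cells of mice at day 60 after infection with LCMV Armstrong, which causes an acute infection. Mice were labelled Rictor-null or wild-type (WT), and Rictor is the defining subunit of mTOR complex 2. The 4 groups, Rictor-null Tfh, WT Tfh, Rictor-null Th1 and WT Th1, had 2 arrays each, and every array held RNA from a pool of at least 10 mice. All groups shared the infection, the time point and a polyclonal T cell repertoire. The sort gates, the strain, age and sex of the mice, the deleted part of Rictor and any Cre line behind the deletion are not stated in the labels used here. All p-values measure the spread between these pools, and the small number of arrays limits the precision. In such bulk RNA, fewer cells of a type and less RNA per cell cannot be told apart.

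AHR is a transcription factor that sits in the cytoplasm with chaperones until a ligand binds it, then pairs with ARNT in the nucleus and induces genes such as Cyp1a1, Cyp1b1, Ahrr and Tiparp. In T cells it is best known for its part in Th17 cells and in the IL-22 response. GATA3 directs Th2 differentiation and is needed in the development of all CD4 T cells. RORα, the product of Rora, acts in Th17 cells and is also required by group 2 innate lymphoid cells. IL-17A is the signature cytokine of Th17 cells, and CCR6 is the receptor for CCL20 that Th17 cells and some other T cells carry. TMEM176A and TMEM176B are membrane proteins of the MS4A-related family, found on intracellular vesicles and known from dendritic cells.

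Tmem176a (gene ID 66058, chromosome 6, 48841483 to 48845364, GRCm38.p6) lies on the opposite strand to Tmem176b (gene ID 65963, chromosome 6, 48833811 to 48845948), and all 3882 bases of the Tmem176a gene model fall inside that of Tmem176b. Their promoter windows, which in RefSeq hold 300 bases, most of them before a transcription start, overlap as well. The windows below are shown because the 2 genes moved together on the arrays and share 155 bases between these starts. Both are printed 5′ to 3′ on their own strand.
Tmem176a, chr6:48841233-48841532 (+): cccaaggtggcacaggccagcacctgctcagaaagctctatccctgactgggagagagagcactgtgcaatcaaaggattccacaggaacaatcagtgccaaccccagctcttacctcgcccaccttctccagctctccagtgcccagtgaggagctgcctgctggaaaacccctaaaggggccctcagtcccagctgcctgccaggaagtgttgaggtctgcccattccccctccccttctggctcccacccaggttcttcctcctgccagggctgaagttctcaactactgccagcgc
Tmem176b, chr6:48841088-48841387 (-): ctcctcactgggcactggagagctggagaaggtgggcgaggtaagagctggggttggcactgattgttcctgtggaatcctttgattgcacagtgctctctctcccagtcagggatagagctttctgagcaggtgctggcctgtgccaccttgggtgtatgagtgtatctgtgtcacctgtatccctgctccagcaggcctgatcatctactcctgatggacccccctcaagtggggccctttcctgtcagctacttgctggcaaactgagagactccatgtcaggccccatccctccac
The core motifs searched on both strands were GCGTG for AHR, AGGTCA for RORα and GATAA for GATA factors. None of the 3 occurred in the Tmem176a or Tmem176b windows, which says only that these letters are not there. RefSeq windows were at hand for 6 of the 7 genes, 10 windows in all.

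The windows of Il17a and of the first Ccr6 start are shown because both hold the AGGTCA core, on the reverse strand as TGACCT, which is in capitals. Il17a (gene ID 16171) lies on chromosome 1 at 20730905 to 20734496 and Ccr6 (gene ID 12458) on chromosome 17 at 8236041 to 8258519.
Il17a, chr1:20730655-20730954 (+): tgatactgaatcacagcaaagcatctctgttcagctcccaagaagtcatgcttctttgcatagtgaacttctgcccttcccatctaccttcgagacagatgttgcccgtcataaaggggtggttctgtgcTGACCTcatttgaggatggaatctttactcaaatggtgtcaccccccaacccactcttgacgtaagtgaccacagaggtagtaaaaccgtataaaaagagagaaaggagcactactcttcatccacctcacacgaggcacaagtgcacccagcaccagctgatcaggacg
Ccr6, chr17:8235793-8236092 (+): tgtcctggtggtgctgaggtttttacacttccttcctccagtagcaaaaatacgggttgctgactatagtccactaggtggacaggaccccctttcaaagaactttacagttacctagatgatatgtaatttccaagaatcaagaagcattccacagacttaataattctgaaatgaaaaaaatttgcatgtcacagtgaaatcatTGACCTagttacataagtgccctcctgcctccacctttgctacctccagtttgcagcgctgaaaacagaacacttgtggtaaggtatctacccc
The AGGTCA core was present in 16.3% of all 32851 RefSeq windows of this length, so its presence in these 2 windows is a description and no sign of binding. GCGTG occurred in 1 Rora window against 32.4% of all windows, and GATAA in the other Ccr6 window against 25.4%. The remaining genes are Ahr (gene ID 11622, chromosome 12, 35497979 to 35534989), Gata3 (gene ID 14462, chromosome 2, 9857078 to 9887953) and Rora (gene ID 19883, chromosome 9, 68653404 to 69388246).

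Signals are in the arrays' linear units, with array medians of 35.7 to 37.7 and maxima of 16055 to 16327. Differences and their standard errors (SE, n = 2 arrays per group) are in log2(signal + 32), which understates changes of dim genes, and folds are of mean signals. A gene was called when its adjusted p, from limma with Benjamini-Hochberg correction over all genes tested, was below 0.05. For each gene the brightest probe set was taken among those exceeding the array median on 2 or more arrays. Of the 18 probe sets 14 passed this filter and 4 did not. Tested comparisons were WT Th1 against WT Tfh, and Rictor-null against WT averaged over both cell types. The WT arrays are not in the difference that chose the genes, and the Rictor-null arrays behind it enter the average with equal weight. The genes were chosen with earlier results of these data known, so neither test is fully independent of the choice. The typical SD between the arrays of a group was 0.033 log2 in WT Tfh and 0.066 in Rictor-null Tfh, the lowest and the highest of the groups. The brightest of 5 Rictor probe sets gave -0.03 ± 0.051 between genotypes (adjusted p = 0.802 in the fit of all probe sets), and none of the 5 passed, so they give no check of the labels, and their place relative to the deletion is unstated in the labels.

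Ahr was lowest in WT Tfh cells and highest in Rictor-null Th1 cells. Its brightest probe set read 80.6 and 84.5 in the WT Tfh pools, 94.3 and 99.1 in the Rictor-null Tfh pools, 137.8 and 163.4 in the WT Th1 pools, and 310.8 and 311.8 in the Rictor-null Th1 pools. The 4 groups did not overlap in any pair. Among WT cells Ahr was 1.82-fold higher in Th1 than in Tfh, 0.67 ± 0.070 log2 (adjusted p = 0.000312). Averaged over both cell types it was higher in Rictor-null cells by 0.54 ± 0.050 (adjusted p = 2.57e-05). Within Th1 cells the genotypes differed by 0.91 ± 0.070 and within Tfh cells by 0.17 ± 0.070, which are descriptions because they share arrays with the choice of the genes. The other Ahr probe set lay below the array median on all 8 arrays, at 29.8 to 36.3, and in a fit of all 34945 probe sets without the filter it gave 0.08 ± 0.035 in WT (adjusted p = 0.222) and -0.05 ± 0.025 between genotypes (adjusted p = 0.276).

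Gata3 followed the same order of groups. Signals were 365.0 and 386.1 in the WT Tfh pools, 431.2 and 471.0 in the Rictor-null Tfh pools, 572.9 and 574.1 in the WT Th1 pools, and 759.7 and 837.6 in the Rictor-null Th1 pools. Again no 2 groups overlapped. WT Th1 cells exceeded WT Tfh cells 1.53-fold, by 0.57 ± 0.068 log2 (adjusted p = 0.000692), and Rictor-null cells exceeded WT cells by 0.35 ± 0.048 on average (adjusted p = 0.000452). Gata3 had 1 probe set, and its genotype difference was 0.24 ± 0.068 in Tfh and 0.45 ± 0.068 in Th1 cells, given as a description.

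Rora was high in every group and its probe sets disagreed. The brightest read 801.2 and 841.0 in the WT Tfh pools, 755.2 and 774.9 in the Rictor-null Tfh pools, 729.3 and 855.0 in the WT Th1 pools, and 756.3 and 781.0 in the Rictor-null Th1 pools. Ordered by their means, neighbouring groups overlapped, although both Rictor-null Tfh arrays lay below both WT Tfh arrays. Its difference between WT Th1 and WT Tfh was -0.05 ± 0.074 (95% interval -0.22 to 0.11, adjusted p = 0.633), and the genotype average was -0.07 ± 0.052 (adjusted p = 0.400). Without WT Th1 replicate 1 the WT difference was 0.06, so its direction rested on that array.

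Of the 9 Rora probe sets 6 passed the filter, and 3 of the 9 were higher in Rictor-null Th1 than in Rictor-null Tfh cells. Probe set 1420583_a_at ran the other way, with 313.2 and 320.1 in the WT Tfh pools, 310.3 and 325.6 in the Rictor-null Tfh pools, 193.9 and 212.0 in the WT Th1 pools, and 212.1 and 216.8 in the Rictor-null Th1 pools. Both Th1 groups lay below both Tfh groups on this probe set. In the fit of all probe sets its WT difference was -0.57 ± 0.047 (adjusted p = 0.00459), and its Rictor-null difference was -0.51. Another, 1436326_at, gave -0.59 ± 0.147 in WT (adjusted p = 0.0726). Averaging all kept Rora probe sets turned the WT comparison into a call of -0.20 (adjusted p = 0.0396). Which transcripts each probe set detects was not analysed here.

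Il17a was dim and passed the filter only through the 2 Rictor-null Th1 arrays. It read 37.4 and 43.2 there, above the medians of those arrays, and lay below the median on each of the other 6 arrays, with 25.2 and 29.7 in the WT Tfh pools, 23.8 and 24.8 in the WT Th1 pools, and 18.6 and 21.6 in the Rictor-null Tfh pools. The 4 groups did not overlap, but no order is read from signals below the median. In the fit of all probe sets, which has no filter, the WT difference was -0.08 ± 0.058 (adjusted p = 0.485) and the genotype average 0.09 ± 0.041 (adjusted p = 0.263), and neither passed.

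Ccr6 was highest in Rictor-null Th1 cells, at 113.9 and 115.4. It read 82.9 and 87.4 in the WT Th1 pools, 72.4 and 88.4 in the WT Tfh pools, and 70.5 and 79.3 in the Rictor-null Tfh pools, and these neighbouring groups overlapped. WT Th1 differed from WT Tfh by 0.06 ± 0.075 (95% interval -0.10 to 0.23, adjusted p = 0.574), and its direction turned to -0.04 without WT Tfh replicate 1. The genotype average was 0.13 ± 0.053 (adjusted p = 0.128). Within Th1 cells the genotype difference was 0.32 ± 0.075 and within Tfh cells -0.07 ± 0.075.

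Tmem176b repeated the order seen for Ahr and Gata3. It read 118.3 and 124.8 in the WT Tfh pools, 152.3 and 180.2 in the Rictor-null Tfh pools, 191.8 and 198.2 in the WT Th1 pools, and 406.7 and 412.4 in the Rictor-null Th1 pools. No 2 groups overlapped. The WT difference was 0.56 ± 0.071 or 1.60-fold (adjusted p = 0.000940), and the genotype average of 0.66 ± 0.050 was the largest among the 7 genes (adjusted p = 5.75e-06). Rictor-null cells were higher in both cell types, by 0.37 ± 0.071 in Tfh and 0.96 ± 0.071 in Th1.

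Tmem176a was measured by 3 probe sets that all passed the filter. The brightest, whose name marks probes that may be shared with other sequences, read 93.2 and 104.5 in the WT Tfh pools, 96.9 and 119.6 in the Rictor-null Tfh pools, 116.4 and 119.7 in the WT Th1 pools, and 259.8 and 267.2 in the Rictor-null Th1 pools. The Rictor-null Th1 arrays stood clear of all others on it, and WT Th1 and WT Tfh each overlapped with Rictor-null Tfh. Its WT difference of 0.20 ± 0.079 did not pass (adjusted p = 0.107), while the genotype average of 0.54 ± 0.056 did (adjusted p = 5.92e-05). Within Th1 cells the genotypes differed by 0.98 ± 0.079. Within Tfh cells they differed by 0.10 ± 0.079 (95% interval -0.08 to 0.27) and overlapped. Both values are descriptions. The WT call depended on the treatment of the probe sets, since their average gave 0.27 (adjusted p = 0.0105).

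A further Tmem176a probe set, 1425603_at, had the widest range of the 18 on the log2(signal + 32) scale. It read 42.8 and 45.6 in the WT Tfh pools, 52.3 and 55.4 in the Rictor-null Tfh pools, 63.7 and 65.2 in the WT Th1 pools, and 219.4 and 219.1 in the Rictor-null Th1 pools. All 4 groups were apart, in the order of Ahr and Tmem176b. In the fit of all probe sets its WT difference was 0.34 ± 0.036 (adjusted p = 0.00954) and its genotype average 0.78 ± 0.025 (adjusted p = 3.47e-05). The last, 1423909_at, read 48.3 and 58.1, 65.1 and 66.8, 66.9 and 73.3, and 128.4 and 149.5 in the same groups, with 0.26 ± 0.077 in WT (adjusted p = 0.102) and 0.47 ± 0.054 between genotypes (adjusted p = 0.00397).

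**Figure D1:**
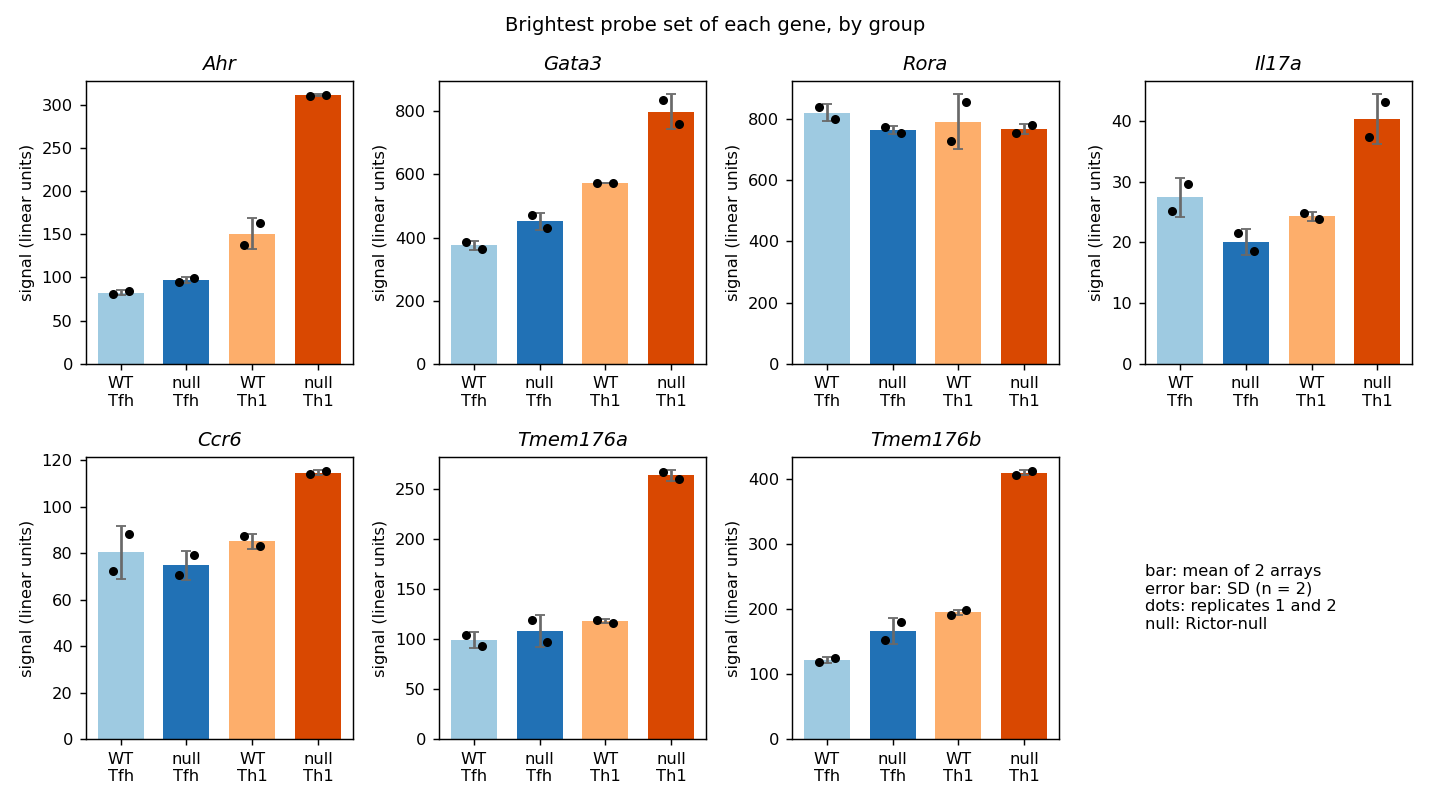
Signal in linear units (vertical axis, from 0) of the brightest probe set of each of the 7 genes in the 4 groups; bars are means of 2 arrays, error bars are SD and dots are the arrays. Ahr, Gata3 and Tmem176b step up through WT Tfh, Rictor-null Tfh, WT Th1 and Rictor-null Th1, Ccr6 and Tmem176a stand apart in Rictor-null Th1 (113.9 and 115.4, and 259.8 and 267.2), and Rora is level.

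Counted together, 3 of the 7 genes (Ahr, Gata3 and Tmem176b) rose in WT Th1 over WT Tfh, against 11.6% of all genes tested, and none of the 7 fell, against 3.09%. In 4 of the 7 both WT Th1 arrays lay above both WT Tfh arrays, which was also so for 48.0% of all genes, a share near that of the genes described here. For 4 of the 7 (Ahr, Gata3, Tmem176a and Tmem176b) the genotype average rose, against 13.1% of all genes, and none fell, against 3.93%. These counts are descriptions, since the genes were chosen with earlier results known and the Rictor-null arrays behind the choice enter the genotype average. For Tmem176a this average came mostly from Th1 cells, with 0.98 there and 0.10 in Tfh cells. For WT Th1 against WT Tfh, the smallest two-sided p that an exact permutation of 2 against 2 arrays allows is 0.333. With quantile normalization the same counts of 3 and 4 were obtained, while over all genes the share of WT calls that were higher went from 79.0% to 59.8% and that of genotype calls from 77.0% to 54.0%. Over all probe sets in the unfiltered fit, 3.73% were called higher and 1.18% lower in WT Th1, and 4 and 1 of the 18 were. For the genotype average 6.37% were called higher, and 6 of the 18 were.

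The difference that chose the genes was largest for Ahr. In Rictor-null cells Th1 exceeded Tfh by 1.42 ± 0.070 log2 for Ahr, or 3.22-fold (rank 3 of 11217 genes). Tmem176b followed with 1.16 ± 0.071 (rank 8), Tmem176a with 1.08 ± 0.079 (rank 10) and Gata3 with 0.78 ± 0.068 (rank 31). Il17a with 0.47 ± 0.066 (rank 145) and Ccr6 with 0.46 ± 0.075 (rank 154) were smaller, and Rora with 0.01 ± 0.074 took rank 5863. Both Th1 arrays lay above both Tfh arrays for 6 of the 7, against 28.0% of all genes, from which nothing is read because this difference chose them. Set against the WT difference, the Rictor-null difference was wider by 0.88 ± 0.111 for Tmem176a, 0.75 ± 0.100 for Ahr, 0.59 ± 0.100 for Tmem176b, 0.55 ± 0.093 for Il17a, 0.39 ± 0.106 for Ccr6, 0.21 ± 0.095 for Gata3 and 0.06 ± 0.104 for Rora, which are descriptions for the same reason.

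**Figure D2:**
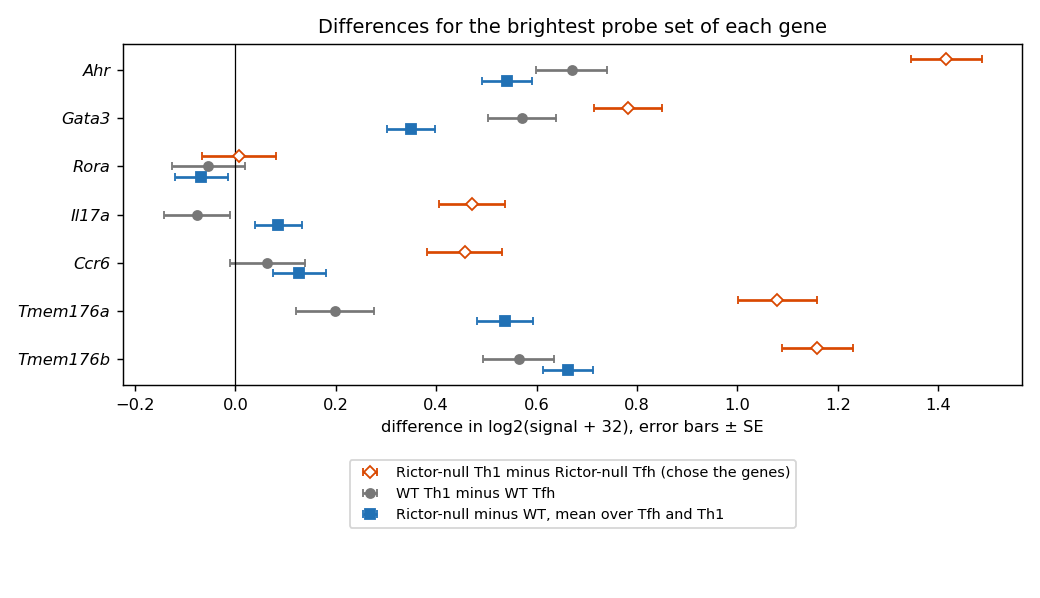
Differences in log2(signal + 32) (horizontal axis) for the brightest probe set of each gene, with error bars of ± SE; open diamonds are Rictor-null Th1 minus Tfh, grey circles WT Th1 minus Tfh, and blue squares Rictor-null minus WT averaged over both cell types. Ahr reaches 1.42 in Rictor-null cells against 0.67 in WT cells, and Rora stays near 0 in all 3.

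**Figure D3:**
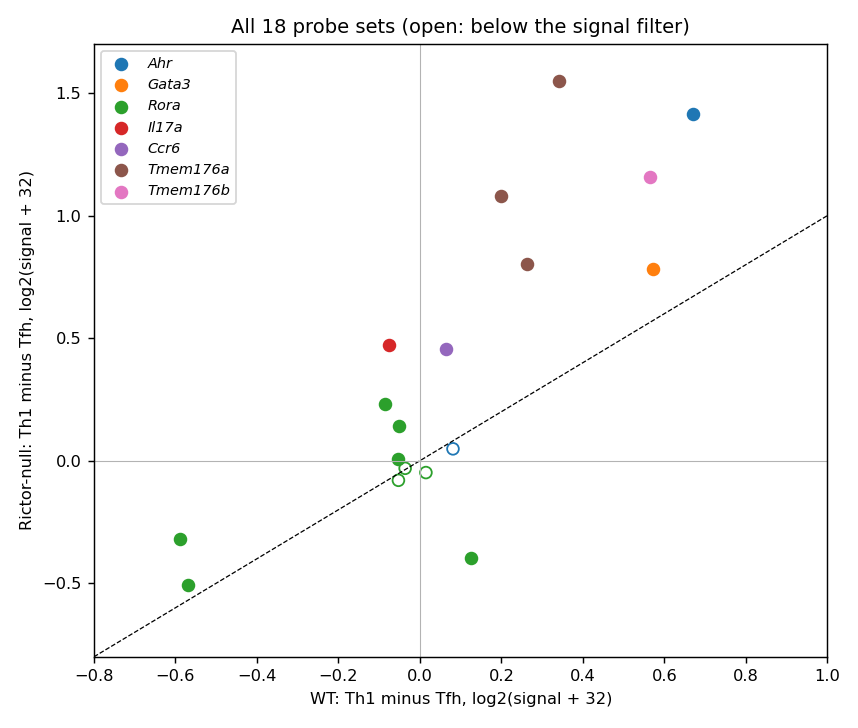
Th1 minus Tfh in WT cells (horizontal axis) against Th1 minus Tfh in Rictor-null cells (vertical axis), both in log2(signal + 32), for all 18 probe sets, coloured by gene; open points are the 4 below the filter and the dashed line marks equal values. The 3 Tmem176a probe sets lie above the line, from 0.80 to 1.55 on the vertical axis, while the Rora probe sets spread from -0.51 to 0.23.

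Across the 8 arrays the levels of Ahr and Tmem176b had a Pearson r of 0.981, those of Ahr and Gata3 0.971, and those of the 2 Tmem176 genes 0.948. Rora stood aside, with r of -0.07 to -0.35 against the other genes. These values describe the same 8 arrays in 4 groups and carry no test. Among 686 other genes whose group means spanned at least 0.5 log2, the pattern of Ahr was most like those of Itgae, which encodes the αE integrin chain (r = 0.991), and Slc25a24, a mitochondrial carrier (0.989). Gata3 was most like Ccr7, a chemokine receptor of lymph node homing (0.989), and Cish, a feedback inhibitor of cytokine signalling (0.987). Tmem176b was most like Tktl1, a transketolase-like gene (0.997), and Pros1, which encodes protein S (0.996), and Tmem176a like Gm4951 (0.990) and Pparg, a nuclear receptor (0.981). The nearest genes were Fam124b (0.989) and the histone demethylase gene Kdm1b (0.935) for Il17a, Trgv4 (0.921) and Gm36723 (0.914) for Ccr6, and Sema4a (0.741) and 2610024D14Rik (0.723) for Rora, whose own group means spanned only 0.10 log2.

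Most listed targets of AHR were dim in all groups, with Tiparp as the exception. Ahrr, Cyp1a1, Cyp1a2, Cyp1b1, Nqo1 and Aldh3a1 did not pass the filter, with mean signals of 4.76 to 16.8. Of 13 listed genes of the AHR pathway, 4 were measured above the filter. None was called between WT Th1 and WT Tfh, where the median of the 4 was 0.09 and that of all genes 0.06. Between genotypes 2 of the 4 rose, against 13.1% of all genes, with a median of 0.17 against 0.02. Tiparp, an AHR-induced ADP-ribosyltransferase that represses AHR, rose by 0.26 ± 0.044 (adjusted p = 0.00218), and its 2 other kept probe sets were called in the same direction. It read 720.6 and 736.5 in the WT Tfh pools, 878.9 and 900.8 in the Rictor-null Tfh pools, 816.7 and 851.1 in the WT Th1 pools, and 944.6 and 1041.4 in the Rictor-null Th1 pools. Rictor-null arrays were the higher in each cell type. Arnt2, a partner of AHR-like factors, rose by 0.23 ± 0.045 (adjusted p = 0.00526, and 0.0103 with no filter). It read 30.9 to 33.8 on the WT arrays, below their medians, and 36.3 to 48.8 on the Rictor-null arrays. It thus passed the filter only through the group called higher, and its place in the count above rests on that. The chaperone gene Hsp90aa1, the brightest of the list at a mean of 3254, gave 0.10 ± 0.056 (adjusted p = 0.229), and Arnt gave -0.03 ± 0.043 (adjusted p = 0.678).

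Of 13 listed genes of the Th17 program, 8 passed the filter. In WT Th1 cells 1 was higher and 2 were lower than in WT Tfh cells, against 11.6% and 3.09% of all genes, with a median of 0.00 against 0.06. Il6ra, the IL-6 receptor chain, rose by 0.31 ± 0.072 (adjusted p = 0.0215) on its brightest probe set, but the other kept probe set did not go the same way and their average gave 0.11 (adjusted p = 0.136). Maf, a factor shared by Tfh and Th17 cells, was lower (-0.51 ± 0.149, adjusted p = 0.0441), as was Runx1 (-0.38 ± 0.091, adjusted p = 0.0227). Leaving out 1 array at a time kept the call of Il6ra in 4 of 8 cases, of Maf in 3 and of Runx1 in 5. No other kept Runx1 probe set passed, and the average over all its kept probe sets was -0.05 (adjusted p = 0.560).

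Between genotypes 4 of these 8 rose and 1 fell, against 13.1% and 3.93% of all genes, with a median of 0.24 against 0.02. Irf4, which Th17 and other effector T cells need, rose by 0.45 ± 0.048 (adjusted p = 6.92e-05), from 112.5 to 144.7 over the 4 WT arrays to 173.4 to 197.1 over the 4 Rictor-null arrays. The hypoxia factor gene Hif1a rose by 0.34 ± 0.057 (adjusted p = 0.00210) and Batf, an AP-1 partner of IRF4, by 0.28 ± 0.052 (adjusted p = 0.00356). Runx1 rose by 0.22 ± 0.064 (adjusted p = 0.0386), a call kept in 2 of 8 cases with 1 array left out and lost in the average of its kept probe sets (0.07, adjusted p = 0.205). Il6ra fell (-0.21 ± 0.051, adjusted p = 0.0158), a call kept in 5 of 8 cases. Maf gave 0.26 ± 0.105 (adjusted p = 0.112). Ccl20, the ligand of CCR6, was below the filter, and Il17f, Il22 and Il23r were not analysed here.

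Of 14 listed genes of the Th2 program, 8 passed the filter. In WT Th1 cells 4 rose over WT Tfh cells and none fell, against 11.6% and 3.09% of all genes, with a median of 0.21 against 0.06. Il4, the cytokine that drives Th2 differentiation, read 22.6 and 23.7 in the WT Tfh pools, 41.9 and 43.5 in the Rictor-null Tfh pools, 36.9 and 45.0 in the WT Th1 pools, and 66.1 and 69.8 in the Rictor-null Th1 pools. Its Rictor-null Th1 arrays were the highest. Both WT Tfh arrays and WT Th1 replicate 1 lay below their array medians, so no order is read among them. Il4 rose by 0.40 ± 0.065 in WT Th1 (adjusted p = 0.00415, and 0.0122 with no filter). Between genotypes it rose by 0.45 ± 0.046 (adjusted p = 5.64e-05, and 0.00055 with no filter). Il4 passed the filter through the Rictor-null arrays and WT Th1 replicate 2, mostly the group called higher between genotypes. Its place in the counts of this list rests on that, and its WT rise rests on dim signals. Without WT Tfh replicate 1 the WT call of Il4 was lost (adjusted p = 0.0640).

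The receptor chain Il4ra (0.28 ± 0.066, adjusted p = 0.0211), its signal transducer Stat6 (0.21 ± 0.060, adjusted p = 0.0441) and Ecm1 (0.26 ± 0.061, adjusted p = 0.0231), a matrix protein linked to the exit of Th2 cells from lymph nodes, also rose in WT Th1. These 3 calls held in 5, 4 and 5 of 8 cases with 1 array left out. The average of the kept probe sets gave 0.10 for Il4ra (adjusted p = 0.218), whose other probe set did not go the same way, and 0.14 for Stat6 (adjusted p = 0.0834), which was also lost with quantile normalization (adjusted p = 0.0970). Between genotypes 3 of the 8 rose and none fell, against 13.1% and 3.93% of all genes, with a median of 0.00 against 0.02, namely Il4, Ecm1 (0.19 ± 0.043, adjusted p = 0.0111) and Nfil3 (0.67 ± 0.042, adjusted p = 1.45e-06). Nfil3, a basic leucine zipper factor that acts on type 2 cytokine genes, read 140.1 to 145.8 over the WT arrays and 239.7 to 264.1 over the Rictor-null arrays. The Th2 cytokine genes Il5 and Il13 and the receptor genes Ccr4 and Ccr8 were below the filter.

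**Figure D4:**
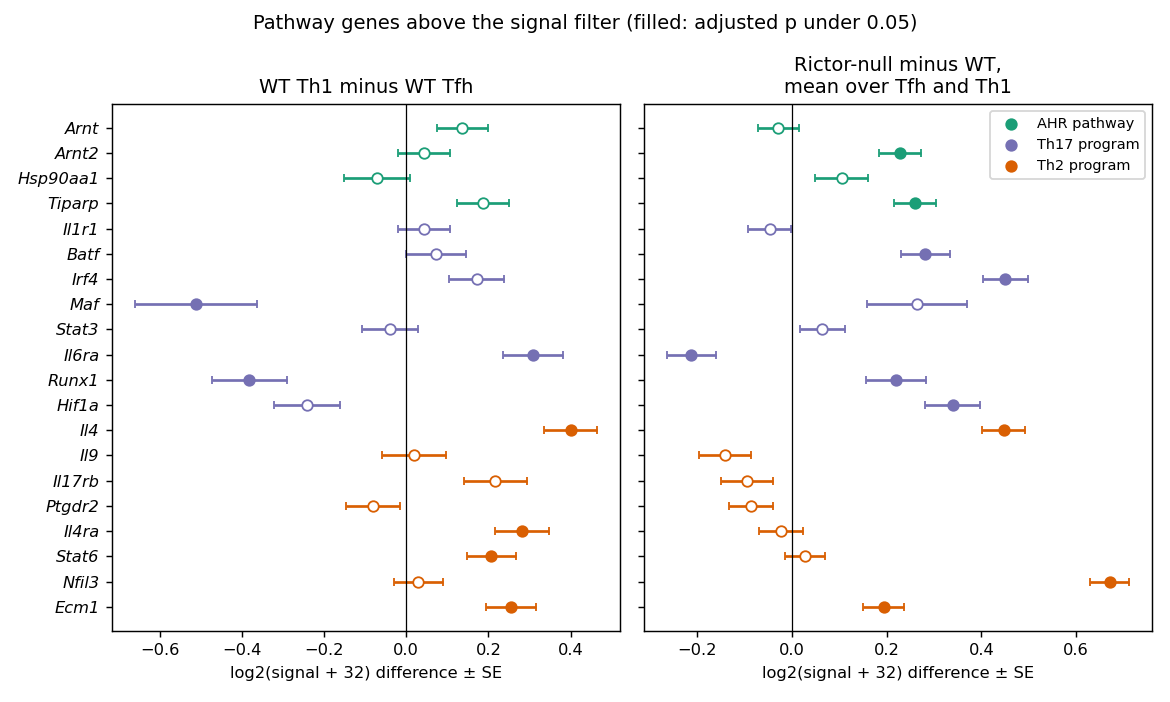
Differences in log2(signal + 32) with ± SE (horizontal axes) for the measured genes of the AHR pathway, Th17 and Th2 lists, in WT Th1 minus WT Tfh (left) and Rictor-null minus WT averaged over both cell types (right); filled points have an adjusted p below 0.05. Nfil3 (0.67), Il4 (0.45) and Irf4 (0.45) lie farthest to the right between genotypes, and Maf (-0.51) farthest to the left in WT.

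The labels were set against marker genes. Of 8 Tfh markers 6 were lower in WT Th1 than in WT Tfh cells, against 3.09% of all genes, among them Cxcr5 (-1.36 ± 0.086, adjusted p = 1.28e-05) and Bcl6 (-0.48 ± 0.055, adjusted p = 0.000645). The defining Th1 genes Tbx21 (0.07 ± 0.056, adjusted p = 0.425) and Ifng (-0.09 ± 0.057, adjusted p = 0.274) did not pass, so they did not set the Th1 label apart. Of 11 Th1 markers measured 1 rose and 2 fell, against 11.6% and 3.09% of all genes. Between genotypes all 8 Tfh markers rose, with a median of 0.46 against 0.02 for all genes. Of the 11 Th1 markers 5 rose and 1 fell. Among all genes 13.1% rose and 3.93% fell. All 5 CD4 T cell markers were bright, and none was called in either tested comparison.

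Markers of regulatory T cells, which can express Gata3, Ahr, Rora and Ccr6, also moved with genotype. Of the 8 listed, 7 passed the filter and 6 rose between genotypes, against 13.1% of all genes, among them Ctla4 (0.77 ± 0.039, adjusted p = 3.22e-07) and Ikzf2 (0.72 ± 0.045, adjusted p = 1.55e-06). Their summed signal was 3867 to 4016 in WT Tfh, 3883 to 3986 in WT Th1, 6076 to 6168 in Rictor-null Tfh and 6352 to 6458 in Rictor-null Th1. The defining marker Foxp3 was below the filter, at 16.9 to 23.7 on the WT arrays and 27.5 to 41.5 on the Rictor-null arrays. In WT Th1 against WT Tfh cells 1 of the 7 rose and 2 fell, against 11.6% and 3.09% of all genes. The part of these markers and of the Tfh markers in the genotype differences of Ahr, Gata3 and the Tmem176 genes was not tested.

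Markers of γδ and innate-like T cells, a source of IL-17A, gave mixed values. Of the 6 listed, 4 were on the array and 3 passed the filter. Zbtb16, which encodes PLZF, rose in WT Th1 (0.25 ± 0.055, adjusted p = 0.0187), and Cd163l1 fell between genotypes (-0.61 ± 0.047, adjusted p = 6.25e-06). The summed signal was 254 to 260 in WT Tfh, 249 to 256 in WT Th1, 191 to 204 in Rictor-null Tfh and 178 to 181 in Rictor-null Th1. Cd163l1 was its largest part, at 160.7 and 162.7 in WT Tfh and 71.0 and 79.6 in Rictor-null Th1. Zbtb16 went the other way and was highest in Rictor-null Th1, at 42.6 and 44.6. It read 25.7 and 27.8 in Rictor-null Tfh and 27.0 and 27.6 in WT Tfh, below the medians of those arrays. In WT Th1 it read 37.4 and 39.3, just above the medians there. Zbtb16 thus passed the filter only through the Th1 arrays, and its WT call rests on dim signals. T cell receptor γ segments were picked after their values were seen. Trgv1 and Trgv4 were among the genes most like Tmem176a and Ccr6 over the arrays. Their shared order and their rises are thus descriptions and no support. The Trgv1 probe set read 33.6 and 35.2 in the WT Tfh pools, 40.3 and 46.3 in the Rictor-null Tfh pools, 49.6 and 51.8 in the WT Th1 pools, and 116.4 and 117.4 in the Rictor-null Th1 pools, the same order as Ahr. In the fit of all probe sets it rose by 0.32 ± 0.045 in WT Th1 (adjusted p = 0.0208) and by 0.51 ± 0.032 between genotypes (adjusted p = 0.000335). Of 3 Trgv4 probe sets, 2 rose between genotypes, where 6.37% of all probe sets with 1 symbol were called higher. These 2 rose by 0.41 ± 0.028 and 0.46 ± 0.074 (adjusted p = 0.000547 and 0.0146), and the dimmest gave 0.02 ± 0.022 (adjusted p = 0.644). The 2 that rose read 55.6 to 70.6 on the Rictor-null Th1 arrays. On all other arrays they lay below the median, at 14.8 to 24.6, so no rise in Tfh cells is read from them. The part of γ-chain transcripts in the results was not tested.

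Markers of myeloid and dendritic cells, which can express the Tmem176 genes, were mostly dim. Of 13 listed, 12 were on the array and 7 passed the filter, and the summed signal was 912 to 914 in WT Tfh, 863 to 889 in WT Th1, 1006 to 1060 in Rictor-null Tfh and 923 to 1079 in Rictor-null Th1. Cst3 made up most of it and rose between genotypes (0.28 ± 0.061, adjusted p = 0.00870), as did Cd68 (0.24 ± 0.055, adjusted p = 0.0142). Cd14, Itgam, Adgre1, H2-Aa and Tyrobp were below the filter, and Lyz2 lay at 31.7 to 43.5 on the 8 arrays. Of the B cell markers 1 of 5 on the array passed the filter (Cd79b, which rose between genotypes by 0.33 ± 0.078, adjusted p = 0.0148), and of those of mast cells and basophils 1 of 6 (Gata2, called in neither comparison). Summed B cell markers were at 124 to 141 in WT Tfh, 136 to 144 in WT Th1, 133 to 163 in Rictor-null Tfh and 147 to 164 in Rictor-null Th1, and summed mast cell and basophil markers at 115 to 146 on all arrays. The CD8 T and NK cell list was led by Eomes, which was lower in WT Th1 than in WT Tfh cells (-3.18 ± 0.075, adjusted p = 3.08e-09). The sum of the list followed Eomes, with 956 to 1317 over the Tfh arrays and 196 to 220 over the Th1 arrays. Cd8a read 39.1 to 52.2 and Cd8b1 43.3 to 62.5 over the 8 arrays. Between genotypes 2 of the 3 measured genes of the list rose, against 13.1% of all genes. The part of these cell types in the results was not tested.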

How the data were processed

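The deposited table holds probe set intensities on a linear scale for 8 Affymetrix arrays and 45037 probe sets. Per the submitters' processing notes the authors used MAS5 and RMA, with no version, role or order given, and no label describes the scaling between arrays. Per the labels, biotinylated cRNA was made from 100 ng of total RNA. Of the probe sets 34945 carried 1 gene symbol, 932 several and 9160 none. Only the first kind was used, and 19671 of those lay above their array's median on at least 2 arrays. The brightest of each gene gave 11217 genes.

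The analysis used log2(signal + 32), where 32 is the pseudocount. Group means over the 8 arrays were estimated by limma 3.58.1 under R 4.3.3 (lmFit, contrasts.fit, eBayes; residual degrees of freedom 4, prior 6.7) with Benjamini-Hochberg adjustment over all genes tested, and again over all probe sets with 1 symbol and no filter. The fit was tested on simulated data.

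The 7 genes and the lists were chosen with earlier results of these data known. Named genes are the 7, every measured gene of the AHR, Th17 and Th2 lists called in a tested comparison, the brightest 2 genes of these lists, for each of the 7 the 2 genes of highest Pearson r, and the defining and brightest markers of each cell type list; further genes were picked after their values were seen. Alternatives covered the pseudocount, scaling, filter, probe set rule, array weights, variance trend, replicate block, use of the compared arrays alone, and leaving out single arrays. Promoter windows and gene positions come from RefSeq (GRCm38.p6). No position was matched to a probe. Python 3.11.15 and matplotlib 3.10.9 were used for counts and figures.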

Additional observations from a re-analysis of the deposited data

Results flagged for a closer look

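Il17a had mean differences of opposite sign in the 2 genotypes and in the 2 cell types, with no overlap between arrays. Th1 minus Tfh was -0.076 log2 in WT, which did not pass the test, and 0.47 in Rictor-null cells, and Rictor-null minus WT was -0.19 in Tfh and 0.36 in Th1 cells. The difference between these effects was not tested, because it contains the comparison that chose the gene. Outside the 2 Rictor-null Th1 arrays every signal lay below its array's median, so the signs rest on dim values and on the arrays behind the choice.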

How the results depend on the processing

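Under the 20 alternatives to the WT comparison, Ahr (0.55 to 0.86), Gata3 (0.53 to 0.61) and Tmem176b (0.48 to 0.68) were called every time, with highest adjusted p values of 0.0091, 0.0164 and 0.0212, and under the 19 to the genotype average Ahr (0.47 to 0.64), Gata3 (0.29 to 0.38), Tmem176a (0.46 to 0.64) and Tmem176b (0.59 to 0.76) were called every time. Averaging all kept probe sets of a gene raised the WT calls among the 7 genes from 3 to 5, by Tmem176a higher and Rora lower (-0.20). Tmem176a was also called in WT with array weights (adjusted p = 0.0383), with only the 4 WT arrays (0.0458) and without either Rictor-null Tfh array (0.0338), 5 of 20 alternatives in all. The direction turned for 2 genes, Ccr6 in WT to -0.039 without WT Tfh replicate 1 (-0.039 to 0.17 with 1 array left out) and Rora in WT to 0.057 without WT Th1 replicate 1 (-0.16 to 0.057 with 1 array left out). Leaving out Rictor-null Tfh replicate 2 together with WT Th1 replicate 1, an alternative chosen after seeing the data, also gave 0.057 for Rora and the same 3 and 4 calls among the 7 genes. Over all genes the number of WT calls was 1653, and it was 1007 with quantile normalization (602 higher, 405 lower, against 1306 and 347), 3175 with array weights and 2592 with only the 4 WT arrays. It ranged from 198 (without WT Tfh replicate 1) to 2678 (without either Rictor-null Tfh array) with 1 array left out, with 270 without WT Tfh replicate 2, 399 without WT Th1 replicate 1 and 651 without WT Th1 replicate 2. The genotype average had 1916 calls, 1031 (without WT Tfh replicate 2) to 2443 with 1 array left out, with 1155 without WT Tfh replicate 1 and 1276 without Rictor-null Th1 replicate 1. Rictor-null Th1 against Tfh had 1090, with 660 under array weights, 595 with its 4 arrays alone and 397 (without Rictor-null Th1 replicate 1) to 1660 (without Rictor-null Tfh replicate 1) with 1 array left out, with 544 without Rictor-null Th1 replicate 2. The cause of these shifts was not tested. Same-numbered arrays did not consistently deviate together (r from -0.51 to 0.28), so they were not treated as pairs. Whether arrays of different groups shared a batch was not tested. With the replicate block 1003 genes were called in WT, and the calls of the 7 genes stayed at 3 and 4. With the block Maf and Stat6 lost their WT calls (adjusted p = 0.0691 and 0.0692), and without the filter Maf and Runx1 did (0.113 and 0.0563). Signals at or below the array medians, as for Il17a, limit what can be seen.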

Other observations

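The genes around the Tmem176 pair were looked at after the values of the pair had been seen. Within 500 kb on each side 19 other genes were measured, several of them Gimap genes, which encode GTPases of lymphocytes. In WT Th1 against WT Tfh cells 2 of the 19 rose, Zfp467 (0.33 ± 0.069, adjusted p = 0.0152) and Zfp775 (0.25 ± 0.062, adjusted p = 0.0253), and none fell, with a median of 0.01; 2 of 19 is near the 11.6% of all genes called higher. Between genotypes 5 of the 19 rose and none fell, where 13.1% of all genes rose, with a median of 0.07 and a range of -0.12 to 0.42. These were Ccdc126 (0.42 ± 0.044, adjusted p = 6.39e-05), Gimap5 (0.33 ± 0.039, adjusted p = 0.000153), Gimap7 (0.29 ± 0.043, adjusted p = 0.000867), Gimap3 (0.20 ± 0.044, adjusted p = 0.0122) and Gimap1 (0.18 ± 0.045, adjusted p = 0.0179). Tmem176b, at 0.66, and Tmem176a, at 0.54, lay above all 19.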
